A study of Mus musculus with 18 samples.

Results

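The comparison described here sets GFP+ induced cardiomyocyte-like cells (iCMs) after 2 weeks against the neonatal cardiac fibroblasts that stand for their starting cell type. It rests on 6 of the 18 arrays of the study, 3 labelled as 2-week iCMs and 3 labelled as neonatal cardiac fibroblasts, chosen by their labels, and covers all 19912 genes that a probe set named singly. All cells came from mice of the CD1 strain. The other arrays, 3 per group, hold neonatal cardiomyocytes, GFP- cells in which reprogramming failed at 2 and at 4 weeks, and GFP+ iCMs at 4 weeks. The labels name neither the factors introduced into the fibroblasts nor the promoter behind the GFP used to tell iCMs from GFP- cells, and they give no other allele or treatment. The fibroblast arrays carry no time label, so the 2 weeks in culture and the reprogramming cannot be told apart in this comparison. The 2-week GFP- cells, of the same age, are given beside it. Their label says that reprogramming failed in them, so they are no culture-only control and do not separate the 2 either.

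Direct reprogramming turns one differentiated cell type into another without a pluripotent stage. In the heart it is known from work that introduced the cardiac transcription factors Gata4, Mef2c and Tbx5 into fibroblasts. A cardiomyocyte is recognised by its sarcomeres, in which myosin thick filaments pull on actin thin filaments anchored at the Z-disc, by the calcium store of its sarcoplasmic reticulum, and by the intercalated discs that couple it to its neighbours. A cardiac fibroblast makes and remodels collagen-rich matrix and divides in culture.

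Values are log2 intensities of one probe set per gene, so a step of 1 is a 2-fold difference, and levels are compared between groups, never between genes. A gene was called, and is said to have risen or fallen, where limma's moderated test across all 18 arrays gave an adjusted p under 0.05 (Benjamini-Hochberg over 19912 genes, two-sided). Every adjusted p below is of that kind. Differences are given with their standard error (SE) and means with the standard deviation (SD) over the arrays, with n = 3 in each group. Nothing in the labels says whether arrays of 1 group came from separate cultures, and the p-values then cover only array-to-array spread, which may be technical. A group mean below 6.16 log2 is called near background here. That value, the 25th percentile of the array where it was lowest, was chosen with the data in view. A fold against such a mean is given as a lower bound. In bulk RNA of this kind, fewer cells of a type and less RNA per cell cannot be told apart.

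Arrays of 1 group correlated at 0.99 to 0.996 across genes. Among the 2-week iCM arrays, replicate 1 had the lowest quality weight in limma (0.33, against 0.8 and 3.23), while the fibroblast arrays had weights from 0.89 to 2.54. The labelled cell types were checked against their markers. The fibroblast arrays held signal of the fibroblast receptor gene Pdgfra (10.47 to 10.94 log2), and also of macrophage genes. The mean level over 35 macrophage markers was 11.16 to 11.39 log2 in the fibroblast arrays, 9.18 to 9.48 in 2-week iCMs, 11.48 to 11.50 in 2-week GFP- cells and 6.51 to 6.71 in cardiomyocytes. In the 24 endothelial markers the corresponding means were 7.01 to 7.02 in fibroblasts and 7.18 to 7.32 in iCMs.

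Between 2-week iCMs and fibroblasts, 6622 of 19912 genes (33.3%) were called, 3467 higher in iCMs (17.4%) and 3155 lower (15.8%). The median difference over all genes was 0.026 log2. Of the called genes 602 rose at least 2-fold (3.02%) and 838 fell at least 2-fold (4.21%), together 7.23% of all genes. The largest rise was in Actc1, followed by Bex1 (5.74 ± 0.19 log2), Myl7, Nppa and Dsp. The 20 largest rises also held the contractile genes Smpx, Csrp3, Myoz2 and Ttn and genes with no such role, among them Anxa8, Cd24a, Enpep, Mlana and Scg2. The 20 largest falls held genes of matrix and its proteases (Dpt, Aspn, Lum, Postn, Mmp3, Mmp16) and genes of the macrophage lineage and innate immunity (Fcrls, Ms4a6b, Stap1, Tlr1, Tlr7, Ccl12).

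**Figure D1:**
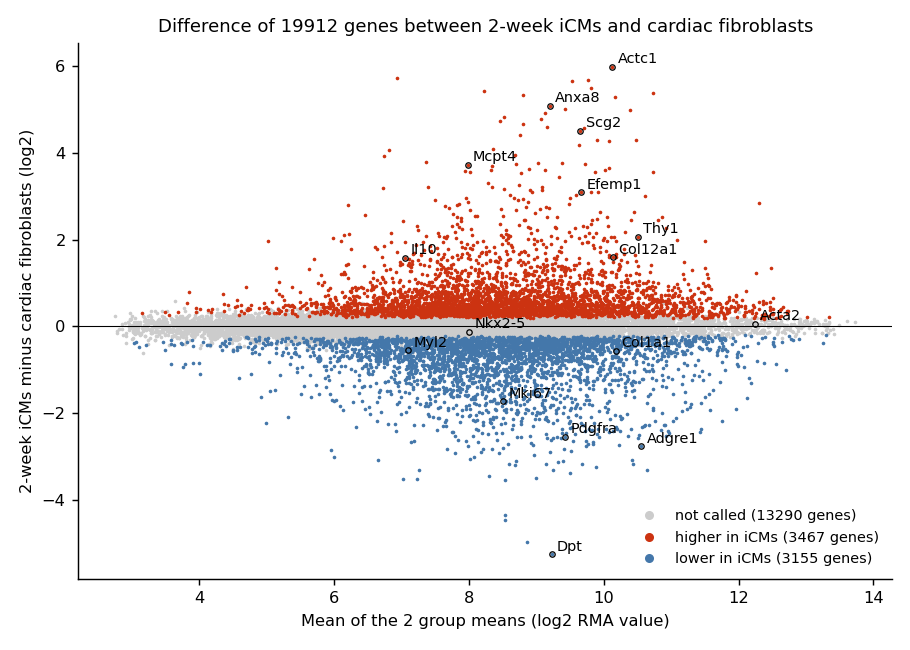
Each point is 1 of 19912 genes, with the mean of the group means of 2-week iCMs and cardiac fibroblasts on the x axis (log2) and their difference on the y axis (log2, iCMs minus fibroblasts). Red points are the 3467 genes called higher in iCMs, blue points the 3155 called lower, and grey points were not called. Actc1 lies near the top of the plot and Dpt near the bottom, while Nkx2-5 and Acta2 lie near 0.

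The 3 transcription factors used in the field for cardiac reprogramming all rose, and all 3 were also above neonatal cardiomyocytes. Tbx5, a T-box factor, read 6.58, 6.70 and 6.75 log2 in fibroblasts and 11.55, 11.58 and 11.63 in iCMs. The arrays of the groups lay far apart, with a difference of 4.91 ± 0.11 log2 (adjusted p = 3.36e-17). Gata4, a zinc finger factor, rose by 2.07 ± 0.13 log2, and Mef2c, a MADS-box factor, by 1.09 ± 0.13 log2. Against cardiomyocytes the 3 were higher in iCMs by 2.27, 1.10 and 1.51 log2 in that order. The rise was not confined to GFP+ cells. In 2-week GFP- cells 2 of the 3 were called higher than in fibroblasts (13.8% of all genes), and Tbx5 averaged 9.23 log2 there. All 3 were higher in iCMs than in GFP- cells (16.2% of all genes). Whether the probe sets read introduced or endogenous transcripts was not tested. Of 26 other cardiac transcription regulators, 13 rose and 2 fell, with a median of 0.40 log2. The called rises were led by Ppargc1a, a coactivator of mitochondrial genes (1.55 ± 0.21 log2), Esrrg (1.41 log2), Smarcd3, a subunit of the BAF chromatin remodelling complex (1.21 ± 0.09 log2), Prox1 (1.11 log2) and Tbx3 (1.05 log2). The other probe set of Ppargc1a was called too but read 0.55 log2, so its rank depends on the probe set. Hand2 (8.30, 8.23 and 7.94 log2 in fibroblasts against 8.21, 8.09 and 8.31 in iCMs) and Gata6 (0.03 log2) were not called. Nkx2-5, an early cardiac homeobox factor, read 8.01, 8.11 and 8.06 log2 in fibroblasts and 8.26, 7.88 and 7.69 in iCMs, with overlapping arrays (-0.12 ± 0.11 log2, adjusted p = 0.451). Without iCM replicate 1, its highest array, it was called lower (adjusted p = 0.0219). Mef2a fell by 0.55 log2 and Zfpm2, a partner of GATA factors, by 0.75 log2.

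Every one of the 10 thin filament genes measured rose, with a median of 1.89 log2 and no overlap between the arrays of the groups. Over all genes, non-overlapping arrays were found in 24.1% of genes in the higher direction and 21.2% in the lower. Actc1, cardiac alpha-actin, read 6.81, 7.34 and 7.26 log2 in fibroblasts and 12.97, 13.26 and 13.12 in iCMs. The lowest iCM array was far above the highest fibroblast array, a 63.3-fold difference (5.98 ± 0.27 log2, adjusted p = 1.01e-12). The 2-week GFP- cells lay between at 8.33, 10.04 and 9.14 log2, and cardiomyocytes averaged 13.61 ± 0.06. Tnnc1, cardiac troponin C, rose by 4.29 log2, and Lmod2, which lengthens thin filaments, by 3.74 log2. The inhibitory troponin subunit differed by isoform. Tnni3, the cardiac form of the mature heart, read 8.30, 8.21 and 8.25 log2 in fibroblasts against 11.72, 12.08 and 11.90 in iCMs, a 12.5-fold difference without overlap. Tnni1, the slow skeletal form of the fetal heart, rose by 0.56 ± 0.13 log2 to a mean of 7.50 log2, while cardiomyocytes averaged 11.51 log2. Nebl, nebulette, rose least (0.42 log2), and its other probe set read 0.21 log2 with no call. Tmod1 rose by 0.79 log2 in the probe set used, while its other probe set read 0.06 log2 with no call.

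Among 16 thick filament and M-band genes, 12 rose and 1 fell (median 1.48 log2). The rises were led by Myl7 and Myl4, the atrial light chains, with 5.67 and 5.38 log2, the giant protein titin (Ttn, 4.78 log2) and the M-band protein Myom2 (4.42 log2). Myl7 stood at 12.46, 12.75 and 12.61 log2 in iCMs and at 12.95 log2 on average in cardiomyocytes, a difference that was not called (-0.34 log2, adjusted p = 0.106). Myh6, alpha-myosin heavy chain, read 6.95, 6.59 and 6.58 log2 in fibroblasts and 9.93, 11.29 and 10.73 in iCMs. The iCM arrays spread over more than 1 log2 unit, yet all lay above the fibroblasts (3.95 ± 0.21 log2, adjusted p = 1.42e-11) and below cardiomyocytes by 2.42 log2. The light chains of ventricular myocytes did not follow. Myl3 read 7.04, 7.03 and 6.83 log2 in fibroblasts and 7.29, 7.13 and 7.0 in iCMs and was not called. Myl2 read 7.47, 7.36 and 7.30 log2 in fibroblasts and 6.79, 6.89 and 6.79 in iCMs, so that every iCM array lay below every fibroblast array (-0.55 ± 0.08 log2, adjusted p = 1.69e-05). In cardiomyocytes Myl2 averaged 13.70 log2 and Myl3 13.30 log2. Of 12 atrial-enriched genes 8 rose and 2 fell, the nuclear receptors Nr2f1 (-0.56 log2) and Nr2f2 (-0.62 log2). Of 10 ventricular-enriched genes 3 rose, Pln, Hey2 and Myh7, and 1 fell, Myl2. The medians were 0.73 and 0.15 log2.

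The promoters of 3 contractile or atrial genes with large rises and of Myl2 are given as the sequence context of this contrast between members. They were chosen after their values were seen and come from RefSeq on build GRCm38.p6, as the 250 bases before the annotated start, 5′ to 3′ on the strand of the gene. Actc1 is at chr2:114052876-114053125 (minus strand), Myl7 at chr11:5898783-5899032 (minus strand) and Nppa at chr4:148000472-148000721 (plus strand). The Myl2 sequence, at chr5:122092939-122093188 (plus strand), belongs to the downstream one of 2 starts in the table. Capitals mark matches to the motifs searched on both strands, which were AGATAA for GATA factors, the letters AGGTGT for T-box factors, the MEF2 consensus and the CArG box of serum response factor. The letters TATAAA were searched on the strand of the gene and can lie within a MEF2 or CArG match. Other letters around GATA, such as tgataa in the Myl7 and Nppa windows, were not searched and are not marked.
Actc1: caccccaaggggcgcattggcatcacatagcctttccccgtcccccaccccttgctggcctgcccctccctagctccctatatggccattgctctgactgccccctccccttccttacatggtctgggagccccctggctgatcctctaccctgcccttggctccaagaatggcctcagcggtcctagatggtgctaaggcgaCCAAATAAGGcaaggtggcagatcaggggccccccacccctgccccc
Myl7: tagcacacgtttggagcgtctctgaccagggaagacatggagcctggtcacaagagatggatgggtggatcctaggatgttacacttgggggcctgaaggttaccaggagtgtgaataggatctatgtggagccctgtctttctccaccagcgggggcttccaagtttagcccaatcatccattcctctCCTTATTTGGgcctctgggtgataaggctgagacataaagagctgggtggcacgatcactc
Nppa: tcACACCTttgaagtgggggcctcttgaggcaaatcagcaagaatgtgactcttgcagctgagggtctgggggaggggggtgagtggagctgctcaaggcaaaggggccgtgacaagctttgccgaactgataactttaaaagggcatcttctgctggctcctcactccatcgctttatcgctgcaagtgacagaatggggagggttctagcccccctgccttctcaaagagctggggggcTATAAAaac
Myl2: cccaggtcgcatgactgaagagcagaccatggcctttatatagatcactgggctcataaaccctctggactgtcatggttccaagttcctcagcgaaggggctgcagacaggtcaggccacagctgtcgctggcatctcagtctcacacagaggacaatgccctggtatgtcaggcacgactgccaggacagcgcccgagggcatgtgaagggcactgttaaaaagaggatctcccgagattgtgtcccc
Actc1 and Myl7 each held a CArG box, at -47 to -38 and at -61 to -52 from the start. Nppa held a T-box match on the minus strand at -248 to -243 and TATAAA at -9 to -4. None of these letters was found in the Myl2 window shown. Matches before the other, upstream Myl2 start were not listed, so Myl2 as a whole cannot be said to lack them. Over all 32851 promoters in the table, 1.47% held a CArG box, 1.69% the MEF2 consensus, 9.99% the GATA motif, 11.8% the T-box motif and 7.59% the letters TATAAA. Over the 149 promoters of 114 genes that rose at least 4-fold the shares were 4.03%, 7.38%, 7.38%, 14.1% and 8.72% in the same order. Over the 184 promoters of 153 genes that fell at least 4-fold the MEF2 consensus was found in 1.63%, the GATA motif in 8.15%, the T-box motif in 9.78%, the letters TATAAA in 10.9% and the CArG box in 0 promoters. These shares describe letters in a window and were not tested.

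At the Z-disc and costamere, 22 of 27 genes rose and 0 fell (median 1.35 log2). Csrp3, a muscle LIM protein, rose by 5.28 log2, desmin (Des), the muscle intermediate filament, by 3.30 log2 and dystrophin (Dmd) by 3.09 log2. Smpx and Myoz2 had fibroblast means near background, and rose at least 27.4-fold and 27.0-fold. Pdlim3 and Flnc, which bind actinin and actin, also stood above cardiomyocytes, by 2.46 and 0.83 log2. Actn2, sarcomeric alpha-actinin, rose by 2.05 ± 0.12 log2 but remained 3.29 log2 below cardiomyocytes.

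All 14 intercalated disc genes rose (median 1.32 log2), with no overlap between arrays in any of them. Desmoplakin (Dsp), which ties desmosomes to intermediate filaments, read 7.16, 7.02 and 7.0 log2 in fibroblasts and 12.37, 12.74 and 12.59 in iCMs. The groups were 45.4-fold apart (5.50 ± 0.10 log2, adjusted p = 8.95e-18), and iCMs also exceeded cardiomyocytes by 0.73 log2. Plakoglobin (Jup), a link of desmosomes and adherens junctions, rose by 2.53 ± 0.13 log2 and lay 1.44 log2 above cardiomyocytes. Plakophilin 2 (Pkp2) rose from 7.66, 7.59 and 7.10 log2 to 10.26, 10.31 and 10.38. Among the gap junction genes, Gja1, connexin 43, read 9.09, 8.89 and 8.73 log2 in fibroblasts and averaged 10.37 ± 0.37 in iCMs, without overlap (1.47 ± 0.16 log2), and Gja5, the atrial and conduction connexin 40, rose by 0.78 ± 0.19 log2 and stayed 3.34 log2 below cardiomyocytes. In 2-week GFP- cells 3 of the 14 genes were higher than in fibroblasts and 3 lower. That comparison shares its fibroblast arrays with the one described here, and called 22.7% of all genes (13.8% higher and 8.93% lower). Set directly against GFP- cells, 13 of the 14 were higher in iCMs and 0 lower, where 34.5% of all genes were called (16.2% higher and 18.4% lower). Against cardiomyocytes 2 were higher in iCMs and 10 lower, where 42.1% of all genes were called (22.7% higher and 19.4% lower). Junction genes are also used by mesothelial cells, whose markers are given further on, and their part in these values was not tested.

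**Figure D2:**
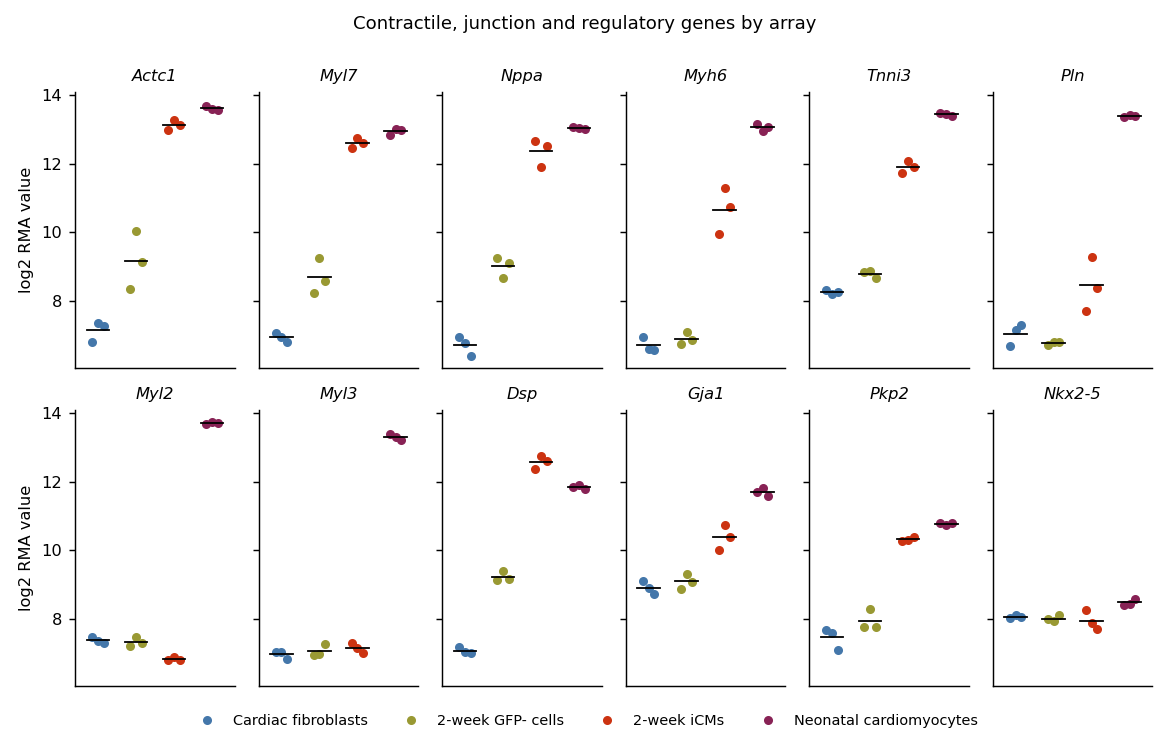
Points are single arrays and black lines the means of 3 arrays, as log2 RMA values, for 12 contractile, junction and regulatory genes in cardiac fibroblasts, 2-week GFP- cells, 2-week iCMs and neonatal cardiomyocytes. Actc1, Myl7, Nppa and Dsp in iCMs lie close to or above cardiomyocytes, Pln and Gja1 lie between, and Myl2, Myl3 and Nkx2-5 in iCMs lie with the fibroblasts or under them.

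Of 17 genes of sarcoplasmic reticulum calcium handling, 14 rose and 3 fell (median 1.24 log2). Calsequestrin 2 (Casq2), the calcium buffer of the store, rose by 5.02 log2 and the release channel Ryr2 by 4.60 log2. Junctophilin 1 (Jph1), which tethers the store to the surface membrane, rose by 3.60 log2 (1.86 log2 in its other probe set, also called). Sarcolipin (Sln), an inhibitor of the calcium pump, rose by 2.46 log2. Phospholamban (Pln), the other inhibitor of that pump, read 6.67, 7.14 and 7.28 log2 in fibroblasts and 7.70, 9.27 and 8.38 in iCMs. It rose by 1.42 ± 0.25 log2 without overlap and stayed 4.94 log2 below cardiomyocytes. Triadin (Trdn) rose by 1.50 log2 in the probe set used, but its 18 other probe sets ran from -1.48 to 3.37 log2, of which 7 were called higher and 2 lower, so its value is uncertain. The 3 that fell were Asph (-0.79 log2), Fkbp1b (-0.61 log2) and the inositol trisphosphate receptor Itpr2 (-0.46 log2).

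Surface channels changed less uniformly. Of 17 calcium, sodium and pacemaker channel genes and their partners, 8 rose and 1 fell (median 0.44 log2). The Popeye domain genes Popdc3 (4.68 log2) and Popdc2 (2.51 log2) rose most, followed by the sodium channel subunit Scn3b (1.90 log2), Bves (1.38 log2), and Cacna1c, the pore of the cardiac L-type calcium channel (1.31 log2). Cacna1d, the pore of another L-type channel, fell by 1.06 log2. The pacemaker channel gene Hcn4 rose by 0.44 log2. Of 22 potassium channel genes 7 rose and 2 fell (median 0.16 log2). Kcnj5, a subunit of the acetylcholine-activated channel of atrial cells, rose by 2.15 log2 and Kcna4 by at least 2.42-fold. Kcnj2, the main inward rectifier of ventricular cells, read 8.28, 8.38 and 8.30 log2 in fibroblasts and 5.87, 6.35 and 5.92 in iCMs. It fell at least 4.28-fold, and iCMs were below GFP- cells and cardiomyocytes as well. Abcc9, the regulatory subunit of the ATP-sensitive channel, stood at 6.98 log2 in fibroblasts and 7.06 in iCMs against 11.15 in cardiomyocytes and was not called. The other fall was Kcnmb1 (at least 1.18-fold), and without iCM replicate 2 or without fibroblast replicate 1 only 1 potassium channel gene was called lower.

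Genes of energy metabolism rose by small steps, with a few large exceptions. In the respiratory chain 19 of 35 genes rose, 0 fell and 0 changed by 2-fold (median 0.21 log2). In GFP- cells 10 of the 35 were higher than in fibroblasts and 0 lower (median 0.18 log2). Directly against GFP- cells, 8 were higher in iCMs and 1 lower (median 0.13 log2). Set against cardiomyocytes, 34 of the 35 were lower in iCMs and 0 higher. Cox7a1, the heart and muscle form of a cytochrome oxidase subunit, read 8.12, 8.36 and 8.50 log2 in fibroblasts and 8.57, 8.95 and 8.63 in iCMs, while cardiomyocytes averaged 12.69 log2. Of 28 fatty acid oxidation genes 15 rose and 0 fell (median 0.29 log2), while 1 fell without iCM replicate 1 or without fibroblast replicate 1. In GFP- cells 8 of the 28 were higher than in fibroblasts and 1 lower (median 0.13 log2). Directly against GFP- cells, 13 were higher in iCMs and 5 lower (median 0.23 log2). Fabp3, the fatty acid carrier of heart muscle, read 7.33, 7.44 and 7.66 log2 in fibroblasts and 10.42, 10.97 and 10.66 in iCMs (3.21 ± 0.13 log2). Pdk4, which shuts pyruvate out of the mitochondrion, rose by 3.18 log2, and the beta-oxidation enzymes Acaa2 and Acadl rose by 2.47 and 1.46 log2. The fatty acid transporter Cd36 was not called (6.89, 7.16 and 7.65 log2 in fibroblasts, 6.97, 7.59 and 7.27 in iCMs), while it stood at 10.46, 10.39 and 10.31 in GFP- cells. Among 26 genes of glycogen, glycolysis and the creatine kinase system 11 rose and 4 fell (median 0.19 log2). The muscle enzyme forms Pgam2 and Eno3 rose by 4.18 and 3.62 log2, and Ppp1r3c, which targets a phosphatase to glycogen, at least 38.4-fold. The falls were Ldha (-0.36 log2), Pgk1 (-0.40 log2), Tpi1 (-0.45 log2) and the muscle creatine kinase Ckm (-0.27 log2).

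Markers of other muscle lineages were measured in the same arrays. Of 27 skeletal muscle genes 6 rose and 0 fell (median 0.11 log2), while 1 fell without GFP- replicate 1. Tnnt3, fast skeletal troponin T, read 8.76, 8.56 and 8.53 log2 in fibroblasts and 11.10, 11.52 and 11.16 in iCMs, a 6.25-fold difference without overlap, and was 2.29 log2 above cardiomyocytes. Myh1, a fast myosin heavy chain, rose by 1.49 ± 0.20 log2 and Mylpf, a fast light chain, by 0.87 log2. The regulators of skeletal myogenesis were not called, with Myod1 at -0.12 log2, Myog at -0.01 log2 and Myf5 near background in both groups. Of 17 smooth muscle and pericyte genes 8 rose and 3 fell (median 0.09 log2). The rises were led by Mcam (1.55 ± 0.14 log2), Myh11, smooth muscle myosin (0.70 log2), and Cspg4 (0.69 log2), and the falls were Pdgfrb, a receptor of pericytes and fibroblasts (-1.70 log2), Cnn1 (-1.14 log2) and Actg2 (-0.52 log2). Acta2, the smooth muscle actin of activated fibroblasts, was not called (12.40, 12.25 and 11.97 log2 in fibroblasts, 12.15, 12.39 and 12.28 in iCMs). In GFP- cells Acta2 was at 9.80, 11.19 and 10.49 log2, below both groups, with a difference of -1.72 log2 from fibroblasts that was called.

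Of 19 collagen chain genes 9 fell and 2 rose (median -0.27 log2). Col3a1 and Col8a1 fell by 2.22 and 2.12 log2 and Col1a2 by 1.75 log2. Col1a1, the other chain of type I collagen, read 10.68, 10.47 and 10.24 log2 in fibroblasts and 9.87, 9.97 and 9.85 in iCMs, a smaller fall of 0.57 log2 without overlap, and remained above GFP- cells by 0.67 log2. Col12a1, a collagen that decorates fibril surfaces, went the other way, from 9.51, 9.41 and 9.10 log2 to 10.72, 11.07 and 11.02 in iCMs (1.60 ± 0.15 log2, adjusted p = 4.59e-08). It was also above GFP- cells and cardiomyocytes, by 2.38 and 3.07 log2. The other rise was Col4a5 (0.28 log2), and only 1 collagen rose without iCM replicate 2, without fibroblast replicate 2 or without fibroblast replicate 3. In 2-week GFP- cells 13 of 19 collagen genes were lower than in fibroblasts and 0 higher.

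Among 30 matrix proteoglycans and glycoproteins 20 fell and 3 rose (median -1.03 log2). The fall of this list was not particular to iCMs. In 2-week GFP- cells 23 of the 30 were lower than in fibroblasts and 0 higher (median -1.31 log2). Set directly against GFP- cells, 11 were higher in iCMs and 5 lower (median 0.08 log2). Dpt, dermatopontin, fell by 5.26 log2 and lumican (Lum), a collagen-binding proteoglycan, fell at least 6.75-fold. Vcan, the large proteoglycan versican, fell by 2.17 log2 and Tnc, tenascin C, by 1.70 log2. Efemp1, fibulin 3, read 8.25, 8.11 and 8.0 log2 in fibroblasts and 11.02, 11.49 and 11.15 in iCMs. All iCM arrays lay about 3 log2 units above the fibroblasts (3.10 ± 0.16 log2, adjusted p = 1.07e-11), and the gene was also 3.05 log2 above GFP- cells and 4.32 log2 above cardiomyocytes. Ecm1 rose by 0.95 log2. Sparc (0.10 log2), Mgp (0.14 log2) and Thbs1 (-0.22 log2), all bright genes, were not called. Of 25 matrix proteases and inhibitors 16 fell and 4 rose (median -0.71 log2). In GFP- cells 11 of the 25 were lower than in fibroblasts and 4 higher (median -0.32 log2). Directly against GFP- cells, 12 were lower in iCMs and 7 higher (median -0.38 log2). Mmp3, stromelysin 1, fell by 4.34 log2, Serpinf1 by 3.32 log2, the aggrecanase Adamts5 by 2.54 log2 and Mmp2, gelatinase A, by 1.92 log2. The rises were at most 0.48 log2 (Ctsk), and only 2 of them were called without iCM replicate 2, without iCM replicate 3, without fibroblast replicate 2 or without fibroblast replicate 3. Timp3, an inhibitor bound to the matrix, rose by 0.46 log2 while Timp1 fell by 0.85 log2.

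Of 21 genes of fibroblast identity and activation 13 fell and 2 rose (median -0.44 log2). In GFP- cells 11 of the 21 were lower than in fibroblasts and 2 higher (median -0.48 log2). Pdgfra, a receptor that marks cardiac fibroblasts, read 10.94, 10.67 and 10.47 log2 in fibroblasts and 8.25, 8.01 and 8.20 in iCMs, a 5.81-fold fall without overlap. It was as low in GFP- cells (8.31, 8.30 and 8.12 log2), where the direct difference from iCMs was -0.09 ± 0.12 log2 and not called. Igf1, a growth factor made by fibroblasts and macrophages, behaved differently, since it fell from 11.17, 11.21 and 11.12 log2 to 8.89, 9.29 and 8.93 in iCMs but stood at 11.30, 11.27 and 11.27 in GFP- cells. Tcf21, a transcription factor of epicardium-derived fibroblasts, fell by 1.80 log2 and Snai2 by 2.13 log2. Thy1, a surface glycoprotein used to select fibroblasts, rose from 9.71, 9.46 and 9.22 log2 to 11.04, 11.98 and 11.61, a 4.21-fold difference. Vim, vimentin, rose by 0.35 log2. Macrophage markers were lower in iCMs than in fibroblasts and GFP- cells, as the values above show, and their part in the falls of shared genes such as Igf1 was not tested.

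Genes of TGF-beta and BMP signalling moved in both directions, with 15 of 32 higher and 9 lower (median 0.14 log2). TGF-beta ligands are secreted regulators of matrix and cell state that signal through paired receptors and SMAD proteins. Among the ligands, Tgfb2 read 8.94, 8.74 and 8.38 log2 in fibroblasts and 10.73, 10.81 and 10.75 in iCMs, and was 4.23-fold higher (2.08 ± 0.17 log2, adjusted p = 7.99e-09). Tgfb3 read 8.69, 8.52 and 8.23 log2 against 10.05, 11.11 and 10.53, a rise of the same size with a wider spread among the iCM arrays (2.08 ± 0.28 log2). Tgfb1 went the other way, from 8.93, 9.16 and 9.08 log2 to 8.45, 8.39 and 8.34 (-0.66 ± 0.11 log2). In GFP- cells all 3 ligands differed from fibroblasts in the opposite direction, with Tgfb2 and Tgfb3 lower by 0.70 and 0.87 log2 and Tgfb1 higher by 0.88 log2, all called. Bmp2, a ligand of cardiac cushion formation, read 6.82, 7.43 and 7.11 log2 in fibroblasts and 9.13, 8.18 and 9.15 in iCMs (1.70 ± 0.21 log2), whereas Bmp4 fell by 0.99 ± 0.16 log2.

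The receptors Tgfbr1 and Tgfbr2 fell by 0.43 and 0.88 log2, and Bmpr1a rose by 0.81 log2. Among the binding proteins and inhibitors, Ltbp1, which stores the latent ligand in matrix, rose by 1.48 log2, follistatin (Fst) by 1.45 log2, Bambi by 0.99 log2 and the inhibitory Smad7 by 0.63 ± 0.13 log2. Id2, a target of BMP signalling that opposes helix-loop-helix factors, read 10.86, 11.02 and 11.24 log2 in fibroblasts and 8.93, 9.14 and 9.15 in iCMs. It fell 3.9-fold, while Id1 (-0.27 log2) and Id3 (-0.20 log2) were not called. With array weights or without fibroblast replicate 3, Id1 was called lower. Ccn2, connective tissue growth factor and a target of TGF-beta, rose by 0.50 log2. Of 33 Wnt and Notch genes 7 rose and 4 fell (median 0.04 log2), a share called that is equal to the 33.3% of all genes. The secreted Wnt inhibitor Wif1 (1.03 log2), the nuclear effector Lef1 (1.02 log2), Hes1 (0.72 log2) and the Wnt target Axin2 (0.62 log2) rose, and the secreted inhibitor Sfrp1 fell by 1.57 log2.

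**Figure D3:**
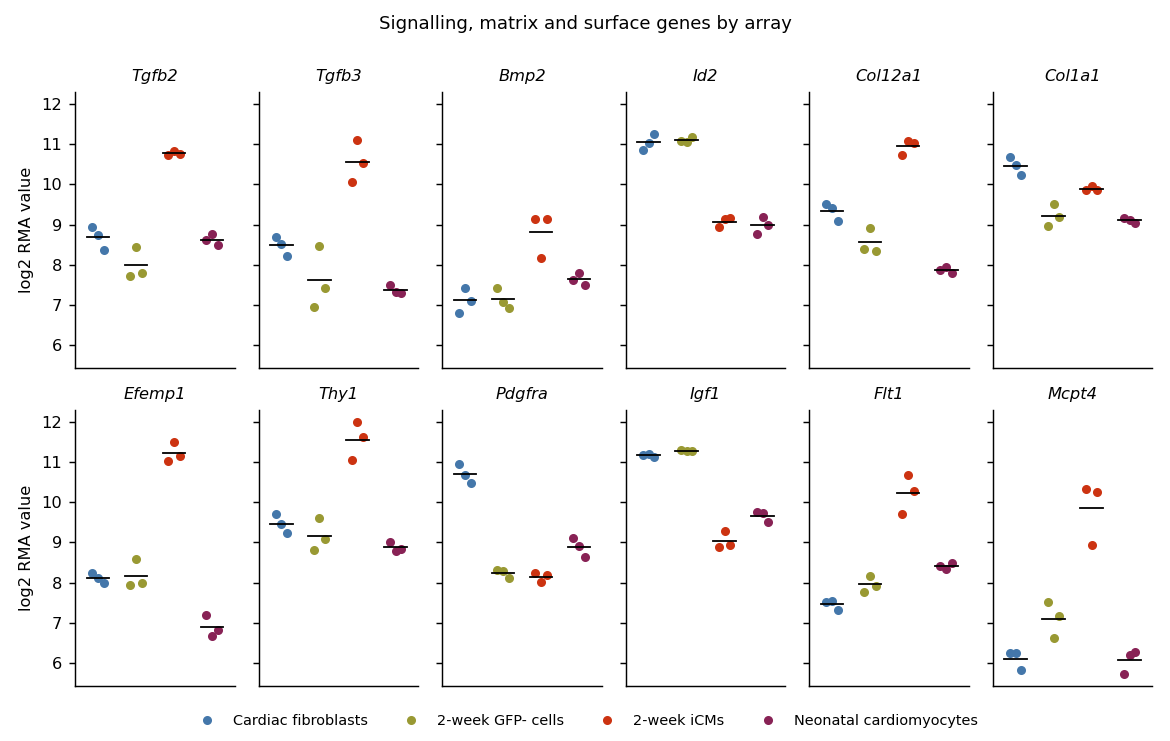
Points are single arrays and black lines the means of 3 arrays, as log2 RMA values, for 12 signalling, matrix and surface genes in the same 4 groups. Tgfb2, Tgfb3, Col12a1, Efemp1, Thy1, Flt1 and Mcpt4 are highest in the 2-week iCM arrays, Pdgfra is low in both iCMs and GFP- cells, and Igf1 and Id2 are low in iCMs but not in GFP- cells.

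Macrophage genes fell almost without exception. Of 35 markers 34 fell and 0 rose, 33 of them at least 2-fold, with a median of -2.04 log2. Adgre1, a surface receptor that defines mouse macrophages, read 11.79, 11.94 and 12.09 log2 in fibroblasts and 8.87, 9.51 and 9.15 in iCMs, a 6.8-fold fall without overlap. Csf1r, the receptor for the macrophage growth factor, read 11.12, 11.24 and 11.44 log2 against 9.11, 9.27 and 9.25. Fcrls fell most (3.31 log2), and the lysosomal and phagocyte genes Lyz2 and Lcp1 fell least among those called (1.01 and 0.92 log2). Cd163 was the member without a call (-0.25 log2), but it was called lower with quantile or cyclic loess normalization or array weights, among others. Signal of these genes was not gone from iCMs, since 32 of the 35 were called higher there than in cardiomyocytes, in which Adgre1 averaged 5.60 log2. All 35 were lower in iCMs than in 2-week GFP- cells.

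Lists of Toll-like receptor, chemokine and cytokine genes also held more falls than rises. Of 11 Toll-like receptor genes and partners 9 fell and 0 rose (median -1.11 log2), among them Tlr1, Tlr7 and Tlr8 by 3.17, 3.12 and 2.80 log2. Of 31 chemokine and receptor genes 17 fell and 3 rose (median -0.49 log2). Ccl12, Ccr1 and Ccl8 fell most (Ccl12 by 3.18 log2, Ccl8 by 2.90 log2 and Ccr1 at least 4.11-fold), Cxcl12, a chemokine of fibroblasts, fell by 1.80 log2, and Ccl17 rose by 1.16 log2. Without fibroblast replicate 3 only 1 gene of this list was called higher. Among 21 inflammatory cytokine and acute phase genes 8 fell and 4 rose (median -0.19 log2), and 5 fell without fibroblast replicate 1. Il1b, Il6 and Tnf fell by 2.24, 2.07 and 2.02 log2. Il10, an anti-inflammatory cytokine, rose from 5.84, 6.29 and 6.66 log2 to 7.95, 7.49 and 8.10 (1.58 ± 0.19 log2). Lif, an interleukin 6 family cytokine, rose from 7.71, 7.51 and 6.98 log2 to 8.55, 9.11 and 8.90, and Il33, an alarmin of stromal cells, by 0.99 ± 0.18 log2. These 3 were also higher in iCMs than in GFP- cells, by 1.17, 1.54 and 1.48 log2. Interferon response genes were split, with 6 of 23 higher and 8 lower (median -0.09 log2), beside 17.4% and 15.8% of all genes. Iigp1, an interferon-induced GTPase, rose from 7.90, 7.81 and 7.79 log2 to 9.67, 8.87 and 9.64, while Ifit3 fell by 0.89 log2 and Irgm1 by 0.84 log2. How far the lower macrophage signal enters these lists was not tested.

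The hairpin gene Mir142, of a microRNA of blood-derived cells, fell with the macrophage markers and is shown for that reason, chosen after its value was seen. It read 8.01, 8.36 and 8.56 log2 in fibroblasts and 6.59, 6.17 and 6.65 in iCMs, without overlap (-1.84 ± 0.20 log2, adjusted p = 4.81e-07). Its mature sequences, from RefSeq on build GRCm38.p6 (chr11:87756867-87756887 and chr11:87756903-87756925, plus strand), are written 5′ to 3′ with the seed, bases 2 to 8, in capitals.
miR-142a-5p: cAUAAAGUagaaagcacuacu
miR-142a-3p: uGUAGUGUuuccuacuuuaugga
The array read the hairpin gene and cannot tell the arms apart. Of 291 microRNA genes measured 17 were called higher and 44 lower, where 17.4% of all genes were called higher and 15.8% lower. Near background in both groups were 143 of them. Mir208a, which lies within Myh6 and is known from heart muscle, was near background in both groups although it was called higher (5.28, 5.16 and 4.90 log2 against 5.57, 5.59 and 5.60).

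Markers of other cell types that the sorted population could hold were examined. Of 24 endothelial markers 3 rose and 0 fell (median 0.09 log2), while 1 fell without iCM replicate 1. Flt1, a receptor for VEGF, read 7.51, 7.54 and 7.33 log2 in fibroblasts and 9.71, 10.68 and 10.28 in iCMs, a 6.76-fold difference, and was also above GFP- cells and cardiomyocytes by 2.26 and 1.81 log2. The endothelial junction genes Cdh5 (0.30 log2) and Pecam1 (0.14 ± 0.14 log2, adjusted p = 0.523) were not called. Of 15 lymphocyte, mast cell and granulocyte markers 2 rose, Mcpt4 and Ly6g. Ly6g was near background in both groups, and its call was lost without iCM replicate 1 or 3, fibroblast replicate 2 or 3, GFP- replicate 1, cardiomyocyte replicate 3 or 4-week iCM replicate 3. Without iCM replicate 1, 1 marker fell. Mcpt4, a mast cell chymase, read 6.27, 6.25 and 5.83 log2 in fibroblasts and 10.34, 8.94 and 10.25 in iCMs, at least 12.3-fold higher. Of 20 mesothelial and epicardial genes 8 rose and 5 fell (median -0.07 log2). Msln, mesothelin, rose by 3.44 ± 0.17 log2, the uroplakins Upk1b and Upk3b by 2.52 and 2.29 log2 and the keratin Krt18 by 1.80 log2, and each exceeded cardiomyocytes too. Wt1, an epicardial transcription factor, rose by 0.52 log2, and Muc16 fell at least 1.55-fold and Aldh1a2 by 1.07 log2. Of 11 pluripotency genes 0 rose and 1 fell (Dppa3, -0.68 log2, with no call when its probe sets were averaged).

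**Figure D4:**
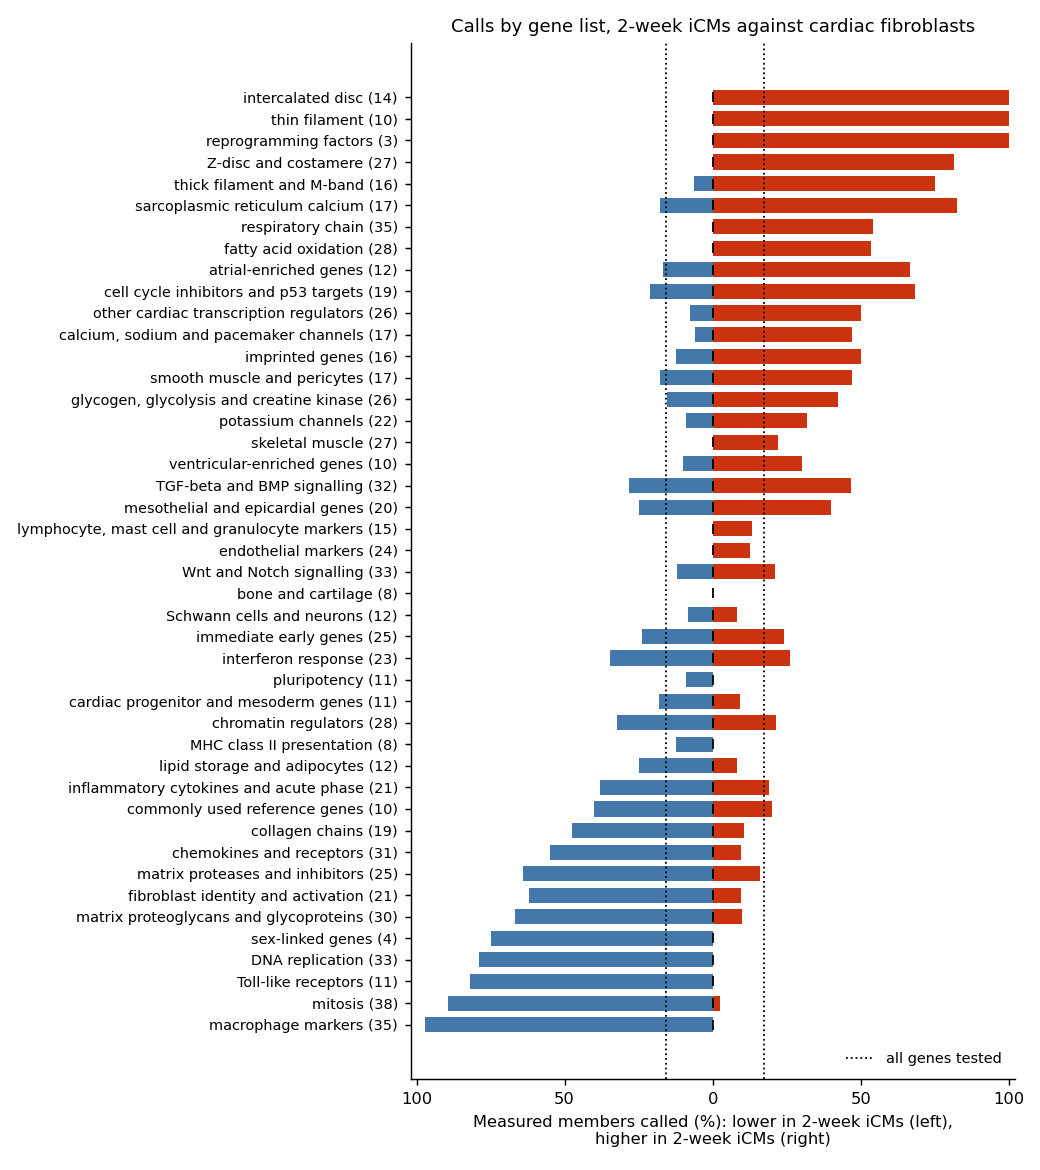
Bars give, for each of 44 gene lists (number measured in brackets), the percentage of measured members called higher in 2-week iCMs than in cardiac fibroblasts (right, red) or lower (left, blue), on one scale from 0 outwards. Dotted lines mark the shares over all genes tested (17.4% higher and 15.8% lower). The intercalated disc, thin filament and reprogramming factor lists fill the whole scale on the right, and macrophage markers and mitosis reach furthest to the left.

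Cell cycle genes fell together. Of 33 DNA replication genes 26 fell and 0 rose (median -0.61 log2), and of 38 mitosis genes 34 fell and 1 rose (median -1.06 log2). The mean level of the mitosis list was 8.41 to 8.75 log2 in fibroblasts and 7.52 to 7.60 in iCMs. Bub1, a spindle checkpoint kinase, read 8.68, 8.91 and 9.21 log2 in fibroblasts and 6.81, 6.71 and 7.07 in iCMs, a 4.19-fold fall without overlap. Mki67, the gene of the proliferation antigen Ki-67, read 9.04, 9.46 and 9.60 log2 against 7.66, 7.50 and 7.75 (-1.73 ± 0.16 log2). GFP- cells lay on the other side of the fibroblasts, with 35 mitosis genes higher and 0 lower and 23 replication genes higher and 0 lower. Set directly against GFP- cells, 37 mitosis genes and 32 replication genes were lower in iCMs. Cardiomyocytes were also above iCMs in 36 of the 38 mitosis genes. Cenpa, the histone variant that marks centromeres, was the mitosis gene that rose, from 7.96, 8.38 and 8.44 log2 to 9.43, 9.58 and 9.47 (1.23 ± 0.16 log2, adjusted p = 2.41e-06). Fibroblast arrays also held more macrophage signal than iCM arrays, and its part in this result was not tested.

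The list of cell cycle inhibitors and p53 targets moved mainly the other way, with 13 of 19 higher and 4 lower (median 0.55 log2). The cyclin-dependent kinase inhibitors in it (Cdkn genes) went both ways. Gadd45g and Phlda3, both growth-restraining genes, rose by 1.20 and 1.17 log2, and Btg2, Mdm2 and Ccng1 by 0.84, 0.73 and 0.56 log2. Among the INK4 genes, Cdkn2a and Cdkn2b rose by 0.64 ± 0.13 and 0.59 ± 0.13 log2, while Cdkn2c and Cdkn2d fell by 0.86 and 0.40 log2. Of the other Cdkn genes, Cdkn1b fell by 0.81 log2 and Cdkn1c rose by 0.31 log2, a call lost without fibroblast replicate 3. Immediate early genes were split, with 6 of 25 higher (Ier3 up 0.72 log2) and 6 lower (Egr2 down 1.14 log2). Over all genes 17.4% were called higher and 15.8% lower.

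**Figure D5:**
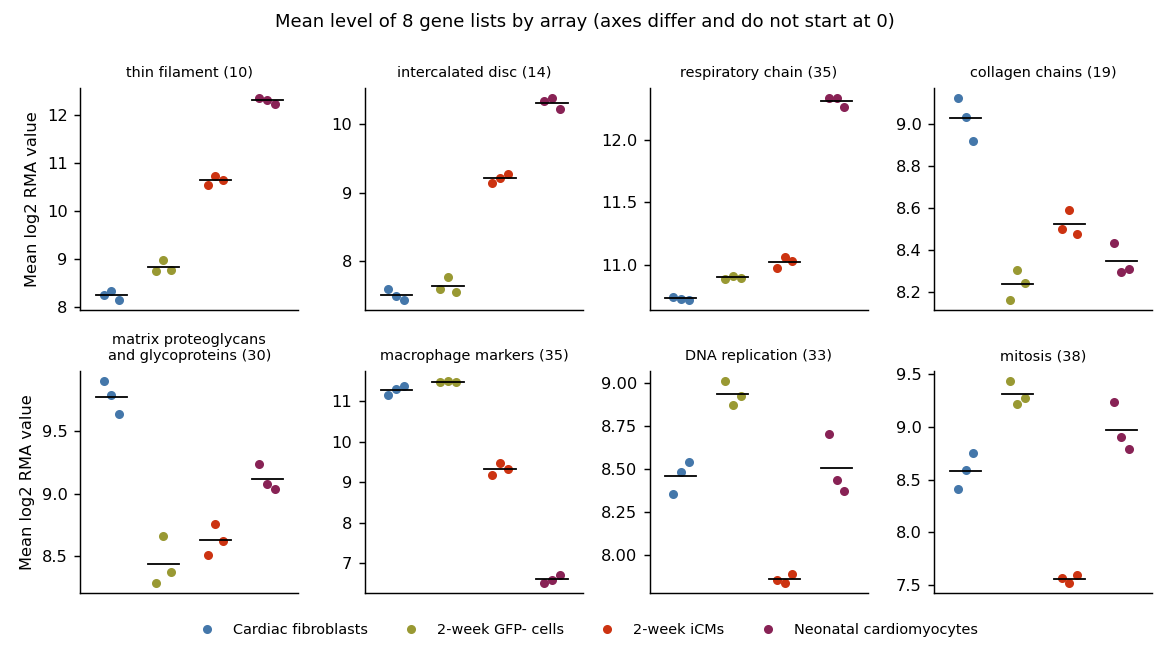
Points are single arrays and black lines group means of the mean log2 value over the measured members of 8 gene lists (number in brackets), in cardiac fibroblasts, 2-week GFP- cells, 2-week iCMs and neonatal cardiomyocytes, with an axis of its own for each panel. The mitosis list is lowest in iCMs (7.52 to 7.60) and highest in GFP- cells (9.21 to 9.43), macrophage markers lie at 9.18 to 9.48 in iCMs, and the respiratory chain list stays near the fibroblasts (10.97 to 11.06 against 10.72 to 10.75).

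Chromatin regulators and imprinted genes held single large changes. Of 28 chromatin regulators 6 rose and 9 fell (median 0.05 log2), beside 17.4% and 15.8% of all genes. Tet1, which oxidises methylated cytosine, read 7.39, 6.84 and 6.99 log2 in fibroblasts and 8.50, 8.82 and 8.73 in iCMs (1.61 ± 0.15 log2), and its other probe sets were called in the same direction. The histone demethylase Kdm6b rose by 0.84 log2. Hells, a remodeller of dividing cells, fell by 1.65 log2 and Ezh2 and Suz12, subunits of Polycomb complex PRC2, by 1.04 and 0.64 log2. The maintenance methyltransferase Dnmt1 fell by 0.75 log2. Of 16 imprinted genes 8 rose and 2 fell (median 0.28 log2), and without fibroblast replicate 3 the number that rose was 5. Mest read 6.93, 7.16 and 7.20 log2 in fibroblasts and 10.28, 9.87 and 10.25 in iCMs, an 8.21-fold difference. It was also high in GFP- cells (9.70, 9.74 and 9.58 log2). Igf2r, the receptor that clears IGF2, rose by 1.98 ± 0.13 log2 and Peg10 by 1.35 log2, and Meg3, a long noncoding RNA, fell by 1.30 ± 0.16 log2.

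The levels reached at 2 weeks can be set beside those of iCMs at 4 weeks, a comparison that shares the 2-week iCM arrays. Of all genes 2297 were called (11.5%), 855 higher at 4 weeks (4.29%) and 1442 lower (7.24%). Myh6 and Pln, which were below cardiomyocytes at 2 weeks, were higher at 4 weeks by 1.35 and 2.06 log2. Myh6 read 12.09, 12.02 and 11.89 log2 at 4 weeks, above every 2-week array. Of the 38 mitosis genes 21 were lower at 4 weeks and 0 higher, and of the 35 macrophage markers 16 were lower and 0 higher. Nppa was lower at 4 weeks by 0.96 log2 and Thy1 by 0.97 log2, while Actc1 (0.21 ± 0.27 log2) and Tgfb3 (-0.28 ± 0.28 log2) were not called. The count of calls was 1421 without 2-week replicate 3 and 1289 without 4-week replicate 2, and 565 genes were higher without 4-week replicate 3.

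A set of genes was higher in 2-week iCMs than in fibroblasts, 2-week GFP- cells and cardiomyocytes. In 42 genes iCMs exceeded each of these 3 groups by at least 4-fold, also with means near background raised to the limit, with a call in all 3 comparisons, which share the iCM arrays. In 1 further gene, Tlcd4, the measured differences were that large but the smallest lower bound was 1.45 log2. The pattern was not particular to 2 weeks. Of these 43 genes 30 were not called between 4-week and 2-week iCMs, 10 were lower at 4 weeks and 3 higher, and Jam2 averaged 12.35 log2 at 4 weeks against 12.52 at 2 weeks. Jam2, a junctional adhesion molecule, read 9.17, 9.07 and 8.61 log2 in fibroblasts and 12.36, 12.65 and 12.54 in iCMs, and its smallest difference from the other groups was 3.31 log2. Anxa8, an annexin, read 6.77, 6.77 and 6.44 log2 in fibroblasts and 11.64, 11.83 and 11.76 in iCMs, 34-fold apart, and cardiomyocytes averaged 6.38 log2. Scd1, which desaturates fatty acids, read 8.49, 8.31 and 8.29 log2 against 11.37, 11.42 and 11.63. Nid2, a basement membrane protein, rose by 4.27 ± 0.13 log2, Mlana, known from pigment cells, by 4.57 ± 0.10 log2, and Scg2, secretogranin II of secretory granules, by 4.51 ± 0.22 log2. Pvalb, a calcium buffer of fast muscle and neurons, rose by 2.71 ± 0.23 log2. Tgfb2, Tgfb3, Thy1, Efemp1, Mcpt4, Tnnt3 and Tbx5 belong to the same set. In the opposite direction 3 genes were at least 4-fold lower in iCMs than in each of the 3 groups, Bub1, Knl1 and the ETS factor Etv1, and for Kcnj2 the smallest lower bound was 1.97 log2. Of these genes Jam2, Scd1, Nid2, Pvalb, Tlcd4, Knl1 and Etv1 are named for this pattern after their values were seen.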

How the data were processed

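Expression was read on Affymetrix mouse Gene 1.0 ST arrays from RNA taken up with a PicoPure kit and amplified with MessageAmp II-biotin, per the labels. The authors deposited log2 values per probe set. These come from RMA, per the submitters' processing notes, a method that subtracts background, equalises arrays and combines probes. The version of RMA is not given in the sources used here. RMA compresses differences near background and near the highest values (13.82 to 13.95 per array), and medians per array ran from 7.32 to 7.44.

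Of 28682 probe sets, 21755 named 1 gene, 1592 several and 5335 none. The last 2 kinds were left out of the comparisons, and for 997 genes with several probe sets the one with the highest mean over 18 arrays was used. One limma model (version 3.58.1 in R 4.3.3, with eBayes moderation) took all 18 arrays with group as its single term, and 5 comparisons were drawn from it, each adjusted over 19912 genes. The fit was tested on simulated data.

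The members and the 44 lists (905 genes, 853 measured) were chosen with earlier results of these data known. Named genes are the 20 largest rises and 20 largest falls among called genes with non-overlapping arrays, all members of lists of up to 12 measured genes, the 8 largest called and the 3 brightest uncalled members of longer lists, and a fixed set of well-known genes. Named outside this rule, after their values were seen, were Mef2a, Flnc, Asph, Fkbp1b, Itpr2, Hcn4, Abcc9, Kcnmb1, Cox7a1, Cd36, Ldha, Pgk1, Tpi1, Ckm, Myod1, Myog, Myf5, Col4a5, Tnc, Ecm1, Ctsk, Timp3, Vim, Tgfb1, Bmp4, Tgfbr1, Tgfbr2, Bmpr1a, Smad7, Ccn2, Csf1r, Lyz2, Lcp1, Ccl17, Cdh5, Wt1, Cenpa, Ccng1, Cdkn2a, Cdkn2b, Cdkn2d, the microRNA genes and the genes so marked in the text. Alternatives were quantile and cyclic loess normalization, array weights, an intensity trend, a robust prior and a fit to the 2 compared groups by themselves. Others were a filter at the 25th percentile, means over probe sets, all probe sets and the replicate number as a block. Each array of the groups used in the comparisons was also left out in turn. The arrays of the older GFP- cells, which are in no comparison, were not left out in this way. With 3 arrays per group, the number of arrays limits the precision.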

Additional observations from a re-analysis of the deposited data

Results flagged for a closer look

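The proliferation gene Mki67 was called in opposite directions against fibroblasts in the 2 populations sorted at 2 weeks, lower in iCMs (-1.73 log2) and higher in GFP- cells (0.89 log2). The direct difference of iCMs minus GFP- cells was -2.61 ± 0.16 log2 (limma, adjusted p = 5.98e-11), with every iCM array below every GFP- array.

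Probe sets outside the comparisons also held differences. Of 1592 probe sets that name several genes, 31 were called higher in 2-week iCMs than in fibroblasts with at least 2-fold. The largest were 4 probe sets shared by Gsta1, Gsta2 and related predicted genes of the glutathione S-transferase family (4.09 to 5.92 log2), and which member they read cannot be told. A probe set shared by Bex1 and Bex4 was higher by 2.82 log2. Of 5335 probe sets with no gene name, 62 were called higher with at least 2-fold. Among the 19912 genes tested that number was 602 (3.02%). Probe sets of these 2 kinds that were called lower were not counted.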

How the results depend on the processing

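The count of 6622 called genes between 2-week iCMs and fibroblasts stayed within 1.5 times under every alternative run. With 1 array left out in turn, it ranged from 5519 to 6837 (higher 2752 to 3584, lower 2767 to 3253). Only arrays of the groups used in the comparisons were left out, so the arrays of the older GFP- cells stayed in these fits. In the lists together, 520 genes were called (473 to 526 with 1 array left out, 222 to 261 higher and 251 to 266 lower). Of the 452 genes named by the rule above 301 were called, 16 of these lost the call under at least 1 alternative and 0 changed direction while called. Counting also uncalled genes that gained a call, 58 of the 452 changed call under at least 1 alternative. Genes named outside that rule were not followed gene by gene.

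With 1 array left out, the comparison with cardiomyocytes gave 7513 to 8577 calls (4115 to 4617 higher, 3398 to 3960 lower) and that with GFP- cells 6050 to 6949 (2826 to 3257 higher, 3224 to 3692 lower). With array weights GFP- cells against fibroblasts gave 7398 calls in place of 4520 (4619 higher, 2779 lower), and 3444 to 4786 with 1 array left out (2095 to 2906 higher, 1305 to 1930 lower). The comparison of 4-week with 2-week iCMs gave 2297 calls, 5985 with array weights (2653 higher, 3332 lower), 1486 from the 2 groups alone (487 higher), 1466 higher with quantile normalization, and 1289 to 2491 with 1 array left out (389 to 944 higher, 861 to 1547 lower). The causes were not tested.

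The replicate numbers were not used to pair the arrays, since in none of the 5 comparisons were all 3 same-numbered pairs correlated above 0.1 in their deviations. The r values were -0.05 to 0.008 for 2-week iCMs and fibroblasts, -0.301 to 0.378 for iCMs and GFP- cells, -0.214 to 0.154 for iCMs and cardiomyocytes, -0.154 to 0 for GFP- cells and fibroblasts and 0.084 to 0.454 for 4-week and 2-week iCMs. For 4-week and 2-week iCMs the same-numbered pairs stood at 0.454, 0.345 and 0.084, and differently numbered pairs ran from -0.479 to 0.294. A pairing of those 2 groups was therefore not excluded, and the labels do not state one. With the number as a block 6729 genes were called between 2-week iCMs and fibroblasts, and 2420 between 4-week and 2-week iCMs.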

Other observations

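Commonly used reference genes were not all level between the groups. Of 10 measured, 2 were called higher in 2-week iCMs than in fibroblasts and 4 lower, and Gusb, a lysosomal enzyme, fell by 1.31 log2. Of the rises 1 was lost without iCM replicate 2 or 3 or without any 1 of the fibroblast arrays, and without iCM replicate 1 the number lower was 2. Hprt fell by 0.43 log2.

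Of 4 sex-linked genes 3 were lower in 2-week iCMs than in fibroblasts, Uty (-0.96 log2), Kdm5d (-0.78 log2) and Xist (-0.60 log2). The call of Kdm5d was lost without iCM replicate 1 (adjusted p = 0.12) or fibroblast replicate 3 (adjusted p = 0.0513, limma). The sex of the animals behind each array is not given in the labels.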
